A study of Mus musculus with 3 samples.

Results

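The opioid peptides and receptors examined here are 7 genes, chosen by name, of the 32285 genes in the count matrices. They are 3 precursors of opioid peptides (*Penk*, *Pdyn* and *Pnoc*) and 4 receptors (*Oprm1*, *Oprd1*, *Oprk1* and *Oprl1*). Single nuclei from the prefrontal cortex (PFC) of male mice aged 6 to 8 weeks were sequenced as 3 libraries, each from tissue pooled before the nuclei were isolated. The C57BL/6J library came from 5 wild-type mice, the *Nav1* KO library from 4 mice of that background in which both copies of *Nav1* lack a stretch of the first exon, and the third from BTBR T+ Itpr3tf/J mice (BTBR below), an inbred strain, whose number is not given in the sources used here. The study compared the genotypes to learn which brain cells change when *Nav1*, a gene expressed in neurons, is disrupted, and mice of a pool cannot be told apart in a library. For the C57BL/6J and *Nav1* KO pools the methods describe a sort that set the proportion of nuclei with the neuronal antigen NeuN, so shares of neurons and of glia depend on that gate. With 1 library per group there is no test and no p-value below. The 95% intervals in parentheses are exact and reflect counting error alone, and a difference between libraries cannot be told apart from a difference between pools, dissections or library preparations.

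Opioid peptides are cut out of larger precursor proteins at pairs of basic amino acids, packed in dense-core vesicles and released from neurons. They act on receptors that couple to inhibitory G proteins, which lower cyclic AMP, open potassium channels and close calcium channels, so that the receiving neuron is less excitable and releases less transmitter. Enkephalins from *Penk* act mainly on the delta and mu receptors (*Oprd1* and *Oprm1*), dynorphins from *Pdyn* on the kappa receptor (*Oprk1*), and nociceptin from *Pnoc* on its own receptor (*Oprl1*), which has little affinity for the other peptides. In the striatum, *Penk* and *Pdyn* are known as genes of separate sets of medium spiny neurons, those with the dopamine receptor *Drd2* and those with *Drd1*, and in the cortex both are known from interneurons.

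The sequences below show how the precursors are built, with the part that codes for the opioid core of a peptide in capitals. The GENCODE M21 coding sequences of Penk-201 and Pdyn-201 were searched for codons of Tyr-Gly-Gly-Phe, which begin the core shared by enkephalins and dynorphins. That of Pnoc-201 was searched for Phe-Gly-Gly-Phe, the start of nociceptin. The residue after each was then read, and each stretch found was preceded by a pair of basic residues. *Penk* held 7 such stretches, 6 ending in Met and 1 in Leu, *Pdyn* held 3, all ending in Leu, and *Pnoc* held 1, ending in Thr. The lower-case bases are the 2 codons on each side. They are given as read 5′ to 3′ on the coding strand, which is the minus strand of mm10 for all of them.
Penk copy 2 (Met): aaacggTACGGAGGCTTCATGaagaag
Penk copy 6 (Leu): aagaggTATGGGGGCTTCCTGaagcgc
Pdyn copy 1: aaacgcTATGGCGGCTTTTTGcgcaaa
Pdyn copy 2: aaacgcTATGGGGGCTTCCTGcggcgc
Pdyn copy 3: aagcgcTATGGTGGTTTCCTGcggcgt
Pnoc: aaaaggTTTGGGGGCTTCACCggggcc
The *Penk* stretches lie in coding exon sequence of Penk-201, in its exon 2, at chr4:4134307-4134333 and chr4:4133935-4133961. The *Pdyn* stretches lie in exon 4 of Pdyn-201 at chr2:129688232-129688258, chr2:129688124-129688150 and chr2:129688067-129688093, and the *Pnoc* stretch in exon 3 of Pnoc-201 at chr14:65404872-65404898. The *Pdyn* copies are the starts of a neoendorphin, dynorphin A and dynorphin B, in that order.

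The precursors lie at chr4:4133531-4138819 (*Penk*, ENSMUSG00000045573), chr2:129686565-129699844 (*Pdyn*, ENSMUSG00000027400) and chr14:65400673-65425472 (*Pnoc*, ENSMUSG00000045731), all on the minus strand of mm10. The receptors lie at chr10:6758506-7038198 (*Oprm1*, ENSMUSG00000000766, plus strand), chr4:132110726-132144486 (*Oprd1*, ENSMUSG00000050511, minus strand), chr1:5588466-5606131 (*Oprk1*, ENSMUSG00000025905, plus strand) and chr2:181715016-181720985 (*Oprl1*, ENSMUSG00000027584, plus strand). The coding sequences of the receptors were 68.3% (*Oprd1* and *Oprl1*) to 72.1% (*Oprm1* and *Oprk1*) identical in pairwise alignment, so none is a near copy of another. *Oprm1* overlaps *Ipcef1* and *Gm10945* on the opposite strand, and *Penk* overlaps *A830012C17Rik* on the opposite strand. Whether the counting used strand is not given in the sources used here, so reads of these overlaps were not told apart.

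After limits on genes and mitochondrial counts, 14630 C57BL/6J, 14056 *Nav1* KO and 14778 BTBR nuclei were kept, with 38704723 to 50965774 counts per library and medians of 2074 to 2754 UMIs per nucleus. Between 55 and 66 barcodes were shared by a pair of libraries. *Nav1* was at 345, 264 and 146 CPM (a count scaled to the total counts of the same nuclei) in C57BL/6J, *Nav1* KO and BTBR, and since the counts are tags from the 3′ end of transcripts and the deletion lies in the first exon, this level does not check the deletion. The labels call the nuclei neurons of the PFC, but clustering gave 30 clusters, of which 23 were named by marker genes as 18 classes, and these included glial, vascular, meningeal, striatal and olfactory bulb classes. The libraries differed in this mix. Striatal medium spiny neuron-like nuclei, with *Rgs9*, *Ppp1r1b* and also *Penk* among their leading genes, were 6.20% of C57BL/6J, 1.95% of *Nav1* KO and 3.22% of BTBR nuclei. Olfactory bulb interneuron-like nuclei were 0.725%, 5.56% and 4.35%, and a small class resembling layer 6 intratelencephalic or claustrum neurons, with *Nr4a2*, *Gnb4*, *Car3* and *Oprk1* itself among its leading genes, was 1.10%, 0.313% and 0.623%. Unnamed clusters held 27.6%, 15.4% and 33.7%. The 7 opioid genes were kept out of the genes used for clustering and are in none of the marker lists.

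*Penk*, the enkephalin precursor, was highest in the striatal medium spiny neuron-like nuclei in each of the 3 libraries. Its level there was 835 CPM (792–880) in C57BL/6J, 794 CPM (729–862) in *Nav1* KO and 538 CPM (494–585) in BTBR. The next classes, the Vip interneuron-like and the olfactory bulb interneuron-like nuclei, were far below it and overlapped each other. In Vip interneuron-like nuclei *Penk* was at 116 CPM (97.4–138), 130 CPM (104–160) and 109 CPM (93.8–126), and in olfactory bulb interneuron-like nuclei at 91.6 CPM (47.4–160, on 106 nuclei), 120 CPM (103–138) and 129 CPM (108–153). The mean of the libraries was 6.10 times higher in the striatal class than in the next class, and the lowest of the 15 classes with enough counts, the layer 5 extratelencephalic-like nuclei, had a mean of 17.7 CPM.

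*Penk* was also counted in glial classes, and since droplets take up free RNA, these counts limit how low levels can be read. Oligodendrocyte-like nuclei had 76.7, 48.6 and 34.3 CPM in C57BL/6J, *Nav1* KO and BTBR. Microglia-like nuclei had 62.1, 79.1 and 56.1 CPM, which was higher in *Nav1* KO and BTBR. The shares below are set against oligodendrocyte-like nuclei alone, so they may understate the background in these 2 libraries. After each nucleus was thinned to 1000 UMIs, a *Penk* UMI was found in 34.1%, 34.1% and 24.4% of striatal medium spiny neuron-like nuclei, and in 6.44%, 4.78% and 3.45% of oligodendrocyte-like nuclei. The Vip interneuron-like class as a whole, at 6.80%, 7.69% and 8.77%, was close to the oligodendrocyte-like share in C57BL/6J. Sst interneuron-like nuclei, at 6.20%, 3.68% and 3.86%, and layer 2/3-like nuclei, at 3.61%, 3.64% and 2.04%, were at or near that background, so no *Penk* expression is read from these shares. Without thinning, a *Penk* UMI was found in 41.5%, 42.3% and 31.5% of the striatal class and 10.3%, 10.5% and 5.84% of the oligodendrocyte-like class, whose median depths were 1682, 2284.5 and 2073.5 UMIs and of 1376, 2047.5 and 1655 UMIs. Thinning left out 94, 13 and 42 striatal and 160, 49 and 83 oligodendrocyte-like nuclei. Of the clusters that make up the oligodendrocyte-like class, one had a high share of nuclei with high doublet scores (30.4%), and in the other *Penk* was at 54.2, 25.3 and 31.6 CPM.

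**Figure D1:**
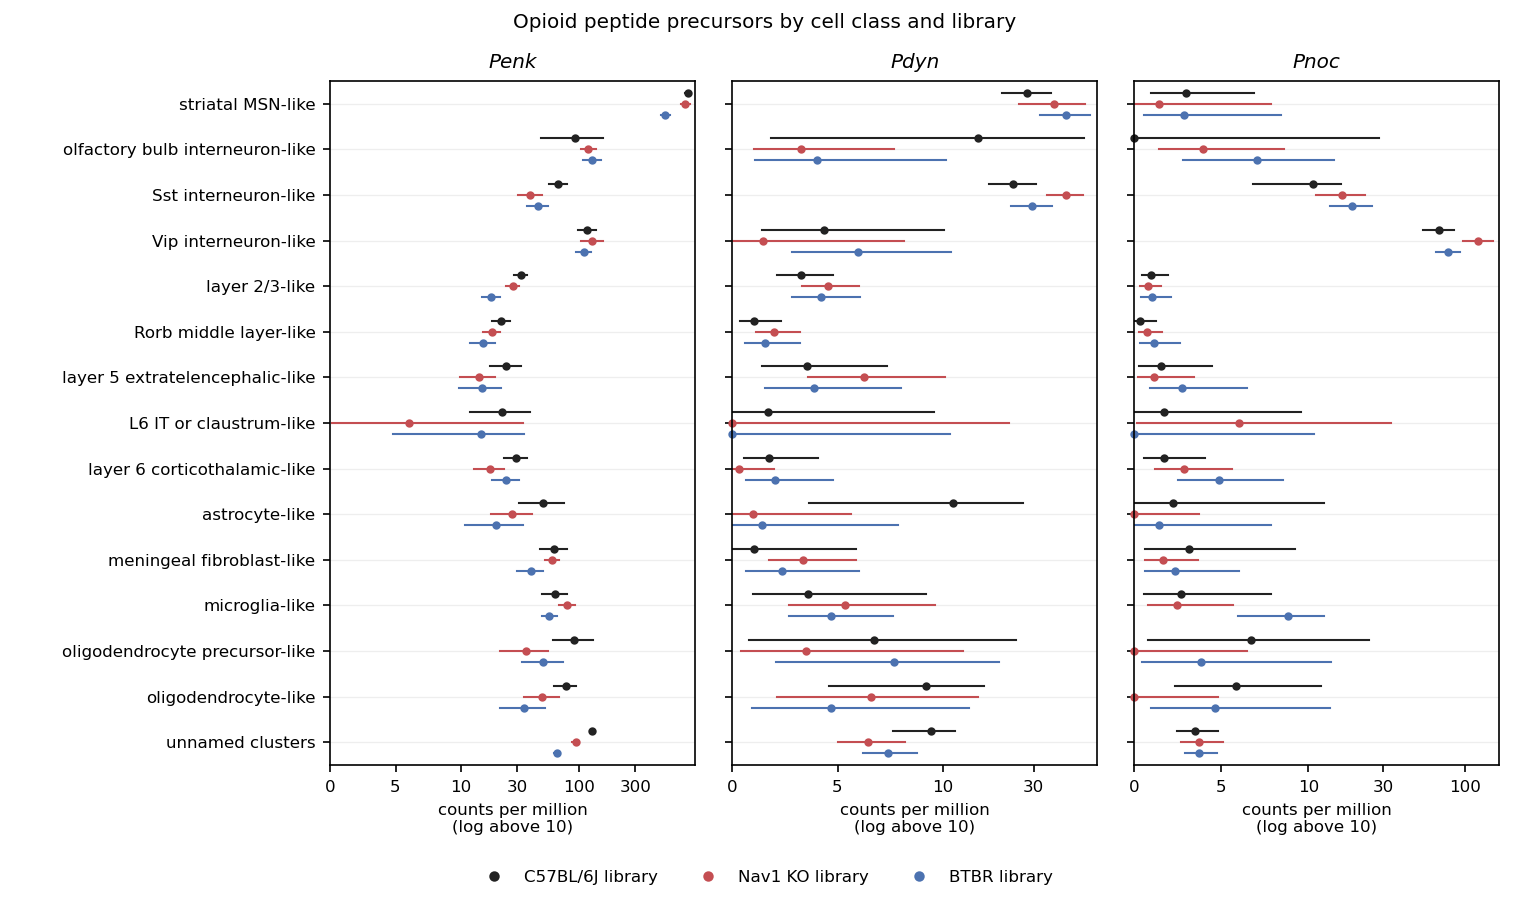
Level of each opioid peptide precursor in CPM (x axis, linear to 10 and logarithmic above) by cell class (y axis) and library (colour), with exact 95% Poisson intervals as lines. *Penk* stands highest in the striatal medium spiny neuron (MSN)-like class (538 to 835 CPM), *Pdyn* in the striatal and Sst classes (23.4 to 44.3 CPM) and *Pnoc* in the Vip class (67.7 to 121 CPM).

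Within the striatal class *Penk* was divided between nuclei marked by different dopamine receptors. Nuclei with a UMI of *Drd1* and none of *Drd2*, *Adora2a* or *Gpr6* were called *Drd1*-marked, and the reverse *Drd2*-marked. This gave 240, 99 and 140 *Drd1*-marked and 235, 75 and 89 *Drd2*-marked nuclei in C57BL/6J, *Nav1* KO and BTBR, while 419, 96 and 243 held neither. *Penk* was at 2014 CPM (1886–2149), 2170 CPM (1962–2395) and 1428 CPM (1269–1601) in *Drd2*-marked nuclei. In *Drd1*-marked nuclei it was at 131 CPM (101–167), 91.2 CPM (59.6–134) and 156 CPM (117–203). The ratio between them was 15.4 (11.9–20.2), 23.8 (16.0–36.9) and 9.18 (6.85–12.5), and the groups did not overlap in any library.

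*Pdyn*, the dynorphin precursor, went the other way. It was at 41.5 CPM (25.4–64.1), 45.6 CPM (24.3–78.0) and 60.5 CPM (37.4–92.5) in *Drd1*-marked nuclei, on 20, 13 and 21 counts. *Drd2*-marked nuclei had 6.57 CPM (1.35–19.2) in C57BL/6J, 16.4 CPM (3.39–48.0) in *Nav1* KO and no count in BTBR, where a count of 0 allows up to 14.6 CPM (3 counts). The intervals overlapped in *Nav1* KO and were apart in C57BL/6J and BTBR. Among the receptors, the delta receptor *Oprd1* was on the *Penk* side, at 21.9 CPM (10.5–40.3) in C57BL/6J *Drd2*-marked against 2.08 CPM (0.0526–11.6) in *Drd1*-marked nuclei, a ratio of 10.5 (1.5–458). Its counts in *Nav1* KO (2 against 0) and BTBR (4 against 1) were too few to give an order. The kappa receptor *Oprk1* was at 114, 154 and 144 CPM in *Drd1*-marked and 83.2, 43.8 and 82.9 CPM in *Drd2*-marked nuclei, and the interval of that ratio was below 1 in *Nav1* KO only, at 0.284 (0.116–0.610). *Oprm1* was at 20.8, 28.1 and 23.0 CPM in *Drd1*-marked and 13.1, 5.48 and 9.75 CPM in *Drd2*-marked nuclei, with overlapping intervals in each library.

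**Figure D2:**
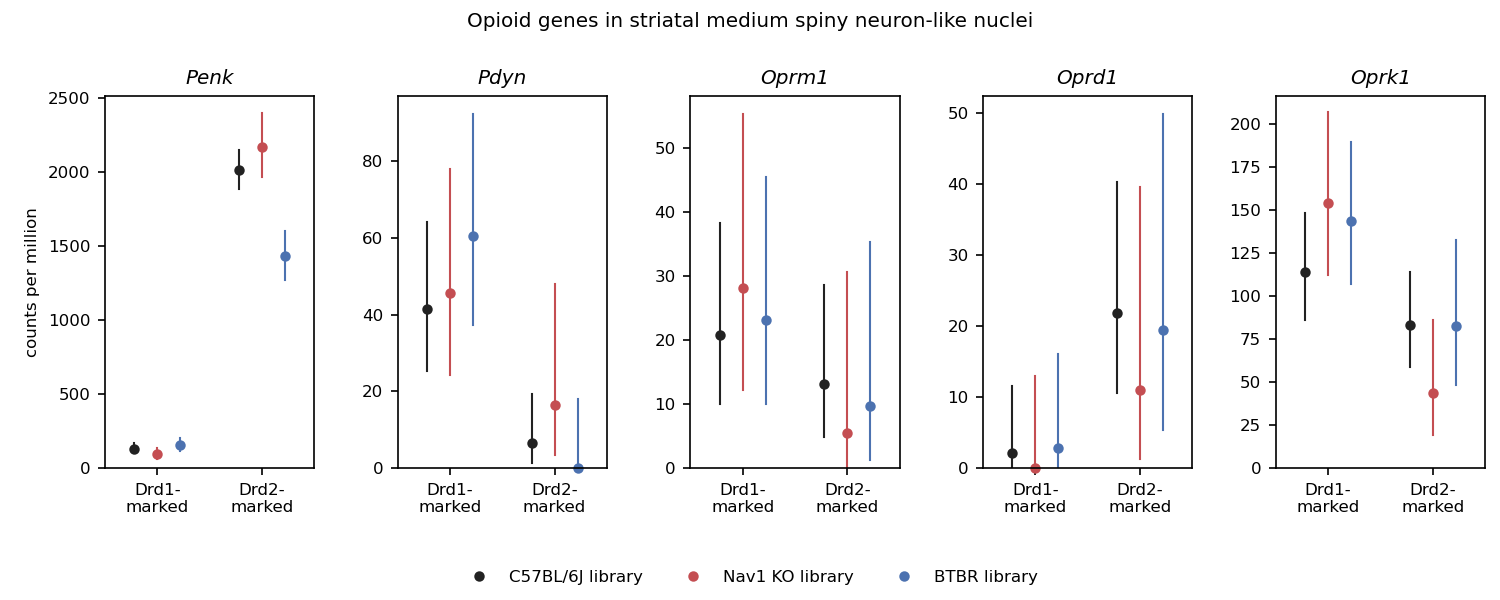
Level of *Penk*, *Pdyn*, *Oprm1*, *Oprd1* and *Oprk1* in CPM (y axes, each from 0) in *Drd1*-marked and *Drd2*-marked striatal medium spiny neuron-like nuclei (x axis) of each library (colour), with exact 95% Poisson intervals. *Penk* is at 1428 to 2170 CPM in *Drd2*-marked and at 91.2 to 156 CPM in *Drd1*-marked nuclei, while *Pdyn* and *Oprk1* have their higher values in *Drd1*-marked nuclei.

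Over all classes *Pdyn* had its highest levels in the striatal and the Sst interneuron-like nuclei, and the order of these classes changed with the library and with the clustering. The striatal nuclei had 27.8 CPM (20.4–37.0) in C57BL/6J, 38.2 CPM (25.2–55.6) in *Nav1* KO and 44.3 CPM (32.4–59.1) in BTBR. The Sst interneuron-like nuclei had 23.4 CPM (17.4–30.9), 44.1 CPM (35.5–54.3) and 29.5 CPM (22.9–37.5). The striatal class led in C57BL/6J and BTBR and the Sst class in *Nav1* KO. At resolution 2, where Pvalb interneuron-like nuclei formed a class of their own, the remaining Sst interneuron-like nuclei had 39.8 CPM (28.7–53.7), 79.5 CPM (63.6–98.2) and 55.3 CPM (42.4–70.9) and led by the mean over the libraries. The other classes with at least 20 *Pdyn* counts, namely layer 5 extratelencephalic-like, microglia-like, layer 2/3-like and *Rorb* middle layer-like nuclei, had means of 1.54 to 4.58 CPM. After thinning, 2.83%, 3.45% and 4.84% of striatal nuclei had a *Pdyn* UMI, against 1.36%, 0.478% and 1.15% of oligodendrocyte-like nuclei.

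The Sst interneuron-like class also held nuclei of other kinds, and splitting it into 6 sub-clusters separated the opioid genes. The largest, the unnamed sub-cluster 0 with 608 nuclei, had *Slc17a7* among its leading genes and a median of 4808 UMIs. Its glutamate markers were at 473 CPM and its GABA markers at 278 CPM. Only sub-cluster 3, with 278 nuclei, kept the Sst name when each was scored against the other sub-clusters. Levels of the whole class also include nuclei such as those of sub-cluster 0. Sub-cluster 3, led by Sst markers, had 99.4 CPM (61.5–152), 121 CPM (83.5–170) and 127 CPM (89.2–176) of *Pdyn*. Sub-cluster 1, led by *Pvalb*, the calcium-binding protein of fast-spiking interneurons, had 5.57 CPM (0.674–20.1), 2.72 CPM (0.0687–15.1) and no count, which allows up to 6.75 CPM. Sub-cluster 3 was higher than sub-cluster 1 in each library with no overlap of the intervals. The unnamed sub-cluster 2 stood apart by library, with 143 CPM (97.1–203) of *Pdyn* in *Nav1* KO, on 31 counts in 78 nuclei, against 34.6 CPM (14.9–68.2) in C57BL/6J and 27.0 CPM (11.7–53.2) in BTBR. The unnamed sub-cluster 4, a small group of 12 to 29 nuclei per library, had *Sst* at 11314 CPM, against 10478 CPM in sub-cluster 3. *Nos1*, *Chodl* and *Npy* were among its leading genes, so it too was rich in *Sst* though it did not keep the name. *Penk* was there at 132 CPM (63.3–243), 154 CPM (56.4–334) and 59.0 CPM (19.1–138). No *Pdyn* or *Pnoc* was counted in it, and with so few nuclei no absence is read from this.

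*Pnoc*, the nociceptin precursor, was highest in the Vip interneuron-like nuclei. It was at 67.7 CPM (53.5–84.5) in C57BL/6J, 121 CPM (96.4–150) in *Nav1* KO and 78.0 CPM (65.3–92.6) in BTBR, with the *Nav1* KO value above the others and no overlap with them. Sst interneuron-like nuclei came next at 10.8 CPM (6.82–16.2), 16.4 CPM (11.3–23.0) and 18.9 CPM (13.7–25.5). Of the 5 classes with at least 20 *Pnoc* counts, layer 2/3-like nuclei were lowest, with a mean of 0.936 CPM. Some classes with fewer counts were lower, such as the *Rorb* middle layer-like nuclei, with a mean of 0.740 CPM on 13 counts. The Vip class held 44.1%, 39.9% and 39.9% of all *Pnoc* counts of a library in 2.71%, 1.25% and 3.47% of its nuclei. A *Pnoc* UMI was found in 9.92%, 12.4% and 7.10% of thinned Vip interneuron-like nuclei, against 0.678%, 0% and 0.575% of oligodendrocyte-like nuclei, where none in 209 *Nav1* KO nuclei allows a share of up to 1.44%. In unthinned Vip interneuron-like nuclei it was found in 13.1%, 27.4% and 19.3%, with median depths of 1959, 2945 and 2293 UMIs.

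Sub-clusters of the Vip class showed *Pnoc* and *Penk* side by side. The unnamed sub-clusters 2 and 4, with 196 and 167 nuclei, had glutamate markers at 478 and 501 CPM and GABA markers at 291 and 538 CPM. The part that kept the Vip name held 220 nuclei, so levels of the whole class include other nuclei. Sub-cluster 1, which kept the Vip name, had 187 CPM (117–283), 457 CPM (321–629, in 35 nuclei) and 99.9 CPM (59.2–158) of *Pnoc*, and the *Nav1* KO value lay above the others. The same nuclei had 332 CPM (236–453), 518 CPM (374–701) and 422 CPM (332–528) of *Penk*, above the *Penk* level of every other named class except the striatal one, and 34.0% of the BTBR nuclei had a *Penk* UMI before thinning. Sub-cluster 0, which matched the Lamp5 list of neurogliaform interneurons, had 95.9 CPM (58.5–148), 133 CPM (77.2–212) and 131 CPM (91.0–182) of *Pnoc* but 52.7, 7.80 and 56.0 CPM of *Penk*. In the Sst class the highest *Pnoc* was again in sub-cluster 3, at 37.9, 62.5 and 88.4 CPM. The sub-clusters were made after the data had been seen.

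**Figure D3:**
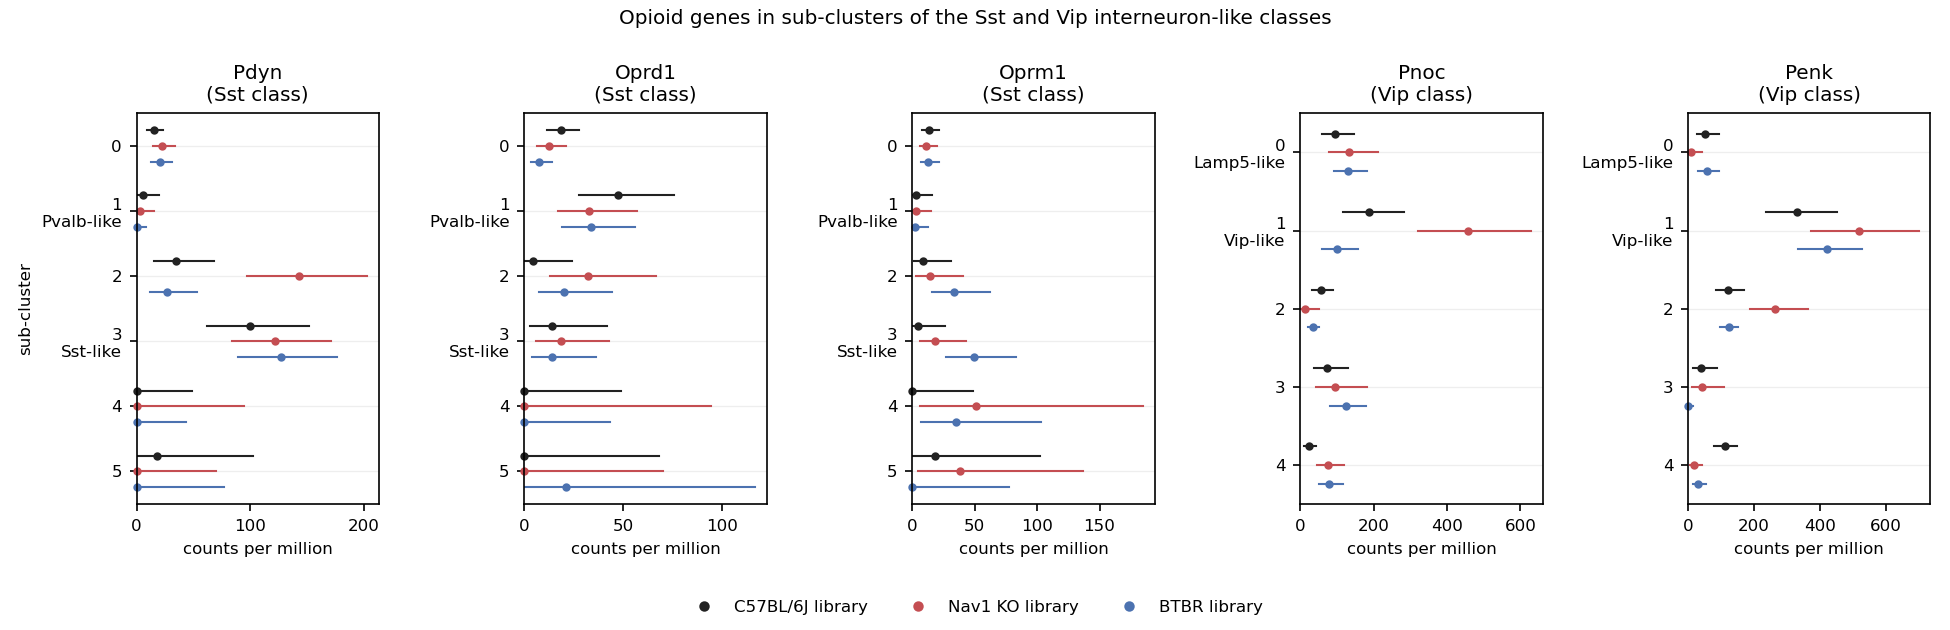
Level of opioid genes in CPM (x axes, from 0) in sub-clusters (y axes) of the Sst and the Vip interneuron-like classes, by library (colour), with exact 95% Poisson intervals. *Pdyn* is high in Sst sub-cluster 3 (99.4 to 127 CPM), *Oprd1* in the Pvalb-like sub-cluster 1 (32.6 to 47.3 CPM), and *Pnoc* and *Penk* in the Vip-like sub-cluster 1.

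*Oprk1*, the kappa receptor, had the clearest pattern of the receptors. It was highest in the small layer 6 intratelencephalic or claustrum-like class, at 371 CPM (323–424) in 161 C57BL/6J nuclei, 435 CPM (341–548) in 44 *Nav1* KO nuclei and 375 CPM (313–446) in 92 BTBR nuclei. These levels overlapped. The striatal medium spiny neuron-like nuclei followed at 103 CPM (88.7–120), 99.0 CPM (77.2–125) and 116 CPM (96.7–139), so that the mean of the leading class was 3.70 times that of the next. Layer 2/3-like nuclei had 33.1 CPM (29.2–37.3), 24.2 CPM (21.3–27.4) and 16.2 CPM (13.3–19.5), and these intervals did not overlap. The nuclei of this class differed by library. Split by the clusters of the finer resolution 2, a choice made after the data were seen, 715, 452 and 365 of them (25.3%, 16.4% and 17.5%) fell in a cluster that had *Oprk1* among its leading genes, where *Oprk1* was at 92.8 CPM (80.2–107), 72 CPM (60.5–85.0) and 59.7 CPM (47.0–74.8). These nuclei held 192 of the 264, 139 of the 246 and 75 of the 111 *Oprk1* counts of the class. At resolution 2 their cluster was unnamed, and its layer 2/3 markers were below those of other clusters (mean log2 ratio -0.393). Most of the *Oprk1* of this class is therefore not read as that of layer 2/3 neurons. Another of the finer clusters, at 15.5 CPM (5.04–36.2), 9.44 CPM (5.28–15.6) and 4.97 CPM (2.99–7.76), held 4.32% of the C57BL/6J, 14.8% of the *Nav1* KO and 55.9% of the BTBR layer 2/3-like nuclei. The part of this mix in the levels of the whole class was not tested. After thinning, 32.1%, 38.6% and 30.8% of the claustrum-like nuclei and 9.84%, 11.1% and 12.2% of the striatal nuclei had an *Oprk1* UMI, against 1.36%, 0.957% and 0% of oligodendrocyte-like nuclei, the last of which allows up to 1.72%. Without thinning, 62.7%, 59.1% and 60.9% of claustrum-like nuclei had one, with median depths of 3175, 3583.5 and 3312 UMIs. In the remaining 12 classes with enough counts the mean was 5.50 to 24.5 CPM. Oligodendrocyte-like nuclei had 31.7 CPM in C57BL/6J against 7.88 and 6.23 CPM in the other libraries, mostly from the cluster with high doublet scores (34 of the 38 C57BL/6J counts).

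*Oprm1*, the mu receptor and target of morphine, was sparse. Of the 10 classes with at least 20 *Oprm1* counts, the highest was the striatal medium spiny neuron-like nuclei, at 18.3 CPM (12.5–26.0), 15.6 CPM (7.77–27.8) and 21.2 CPM (13.3–32.1), on 31, 11 and 22 counts. Sst interneuron-like nuclei followed at 9.83 CPM (6.08–15.0), 12.4 CPM (8.03–18.3) and 18.5 CPM (13.3–25.0), and layer 6 corticothalamic-like nuclei at 15.7 CPM (11.4–21), 9.97 CPM (6.62–14.4) and 13.1 CPM (8.94–18.4). The intervals of these 3 classes overlapped, and layer 2/3-like nuclei, with a mean of 2.75 CPM, were lowest of the 10. Among classes with fewer counts, endothelial-like nuclei had a mean of 18.7 CPM (6.46–48.3) on 7 counts. Meningeal fibroblast-like and oligodendrocyte precursor-like nuclei had means of 2.14 and 1.71 CPM, on 13 and 2 counts. At resolution 2 the Sst interneuron-like class led instead by the mean over the libraries, at 8.52 CPM (3.90–16.2), 16.6 CPM (9.86–26.3) and 33.9 CPM (24.0–46.5). Thinned shares were 1.97%, 1.92% and 2.76% in the striatal class and 0.339%, 0% and 0% in oligodendrocyte-like nuclei, where 0 of 209 and of 174 nuclei allow up to 1.44% and 1.72%. In Sst sub-cluster 3 *Oprm1* was at 4.73 CPM (0.120–26.4), 18.4 CPM (5.97–42.9) and 49.5 CPM (27.1–83.1), on 1, 5 and 14 counts, with BTBR above C57BL/6J and no overlap between them. The Pvalb-like sub-cluster 1 had a single count in each library, 2.25 to 2.78 CPM.

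*Oprd1*, the delta receptor, was highest in the Sst interneuron-like class, at 20.1 CPM (14.6–27.1), 18.4 CPM (12.9–25.3) and 15.0 CPM (10.4–20.9). Its mean there was 2.86 times that of the striatal class, the next of the 5 classes with at least 20 *Oprd1* counts, with no overlap. The claustrum-like class, on 12 counts, had a mean of 12.4 CPM (5.70–24.7) and library values of 8.86 to 18.1 CPM, which overlapped the Sst class. Within the Sst class the Pvalb-like sub-cluster 1 held 17 of 43, 12 of 37 and 15 of 34 counts, at 47.3 CPM (27.6–75.7), 32.6 CPM (16.8–56.9) and 33.7 CPM (18.9–55.7), while the Sst-like sub-cluster 3 had 14.2, 18.4 and 14.1 CPM. The intervals of these sub-clusters overlapped in each library. At a finer resolution of the whole clustering, which separated a Pvalb interneuron-like from a Sst interneuron-like class, *Oprd1* was at 29.4, 21.3 and 19.2 CPM in the former and 10.4, 16.6 and 10.7 CPM in the latter. Thinned shares in the Sst interneuron-like class, 2.54%, 1.84% and 2.09%, were above the oligodendrocyte-like shares of 1.02% and 0.575% in C57BL/6J and BTBR and near the 1.44% of *Nav1* KO. No *Oprd1* count was found in astrocyte-like nuclei of C57BL/6J or BTBR, which allows up to 6.76 and 4.24 CPM.

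*Oprl1*, the nociceptin receptor, was spread most evenly over the classes with enough counts. Its 13 such classes had means from 11.1 CPM in meningeal fibroblast-like to 33.4 CPM in oligodendrocyte precursor-like nuclei, and each class overlapped its neighbour in that order. Classes with fewer counts are left out of that order. Of these, astrocyte-like nuclei were lowest, with a mean of 6.69 CPM (3.59–11.8) on 15 counts. That interval lay below the one of the oligodendrocyte precursor-like mean (24.4–45.3). Oligodendrocyte precursor-like nuclei led in each of the 3 libraries, at 26.8 CPM (11.6–52.9), 37.0 CPM (22.9–56.6) and 36.4 CPM (21.9–56.9), on 8, 21 and 19 counts. Layer 6 corticothalamic-like nuclei, at 24.8, 24.9 and 26.9 CPM, and layer 5 extratelencephalic-like nuclei, at 24.0, 22.0 and 28.3 CPM, came next. The thinned share in oligodendrocyte precursor-like nuclei was 4.55%, 4.85% and 4.95%, against 2.03%, 0.478% and 2.30% in oligodendrocyte-like nuclei.

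**Figure D4:**
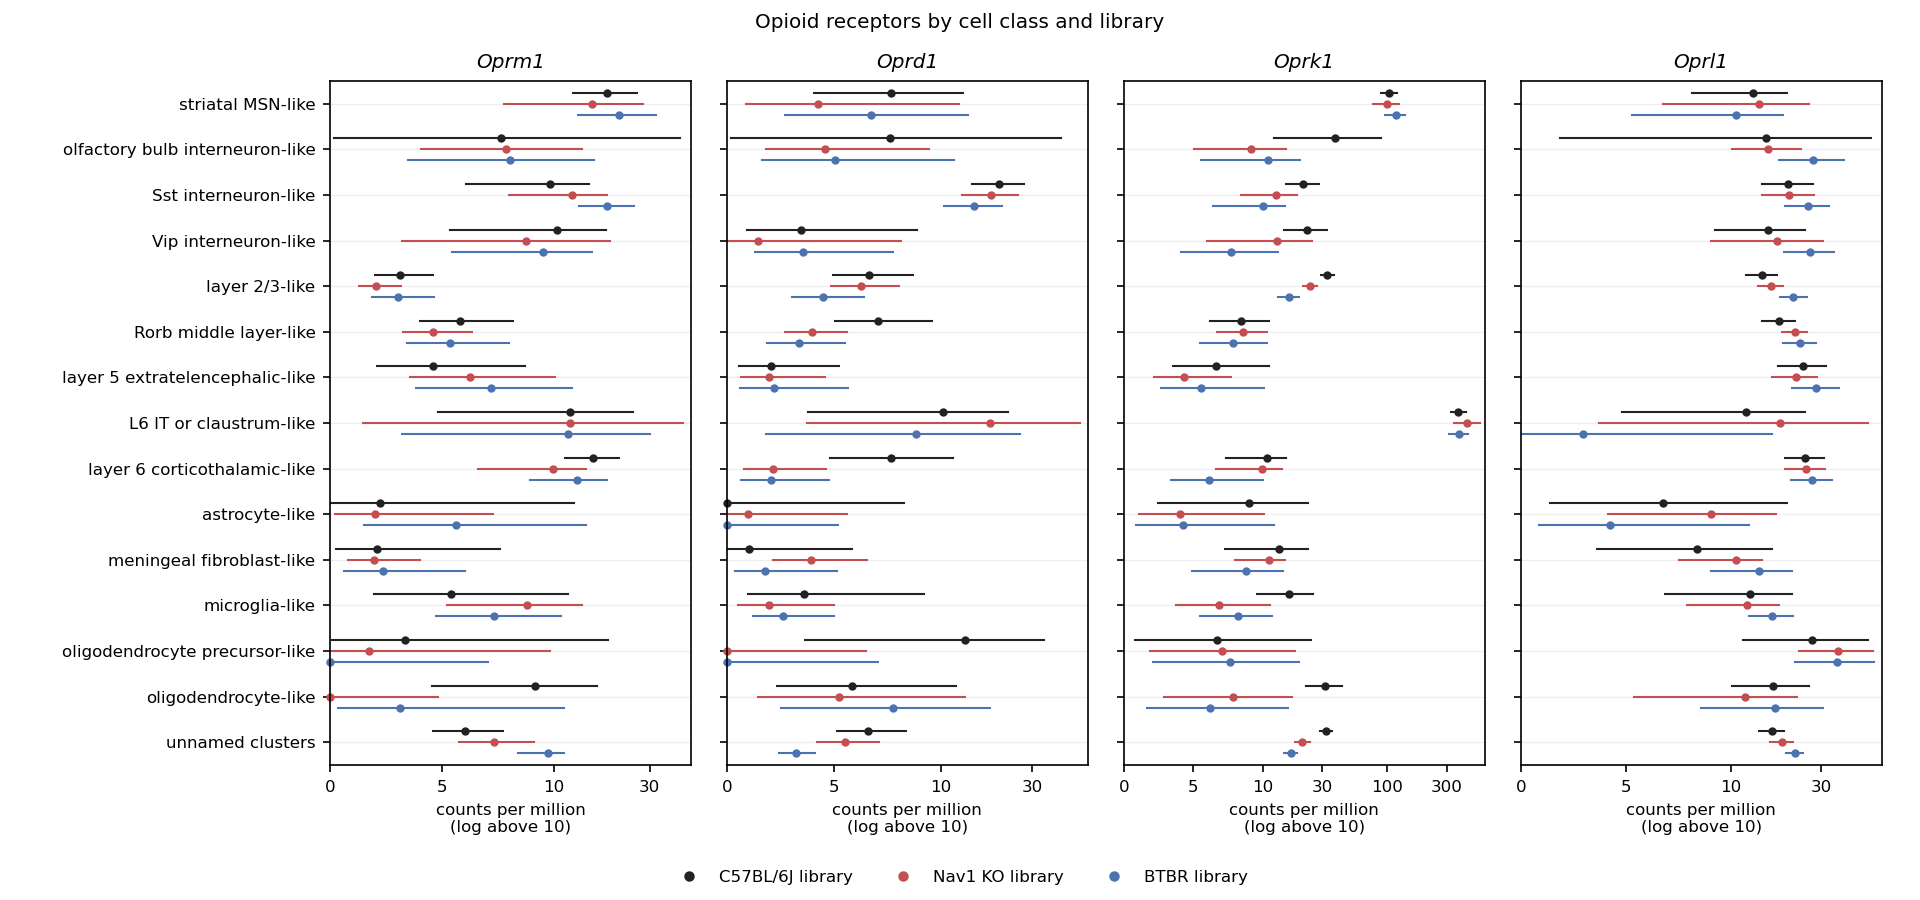
Level of each opioid receptor in CPM (x axis, linear to 10 and logarithmic above) by cell class (y axis) and library (colour), with exact 95% Poisson intervals as lines. *Oprk1* stands at 371 to 435 CPM in the layer 6 intratelencephalic (IT) or claustrum-like class and near 100 CPM in the striatal class, while *Oprl1* shows no class that stands apart above the others.

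The libraries were then compared for each gene, *Nav1* KO over C57BL/6J and BTBR over C57BL/6J. Both comparisons use the same C57BL/6J library, so any error in it enters both. A gene was called higher or lower when its ratio passed 1.5-fold and it had at least 20 counts in 1 of the libraries. In *Nav1* KO over C57BL/6J, 2 of the 7 opioid genes were called, both lower, and over all 17621 genes that could be called 20% were. In BTBR over C57BL/6J, 3 of the 7 were called, all lower, and over all 17632 genes 23.0% were. With 7 genes these counts are not read as setting the opioid genes apart.

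*Penk* was lower in both comparisons. Over the whole library it was at 99.3 CPM in C57BL/6J, 58.8 CPM in *Nav1* KO and 58.1 CPM in BTBR, ratios of 0.592 (0.565–0.621) and 0.585 (0.557–0.614). The share of striatal medium spiny neuron-like nuclei, given above, moved with it, and these nuclei held 36.7%, 18.7% and 19.7% of the *Penk* counts of the libraries. Without them the ratios were 0.738 (0.697–0.781) and 0.725 (0.685–0.768) and no longer passed 1.5-fold. Within the striatal nuclei the ratio was 0.951 (0.860–1.05) in *Nav1* KO and 0.644 (0.583–0.711) in BTBR, and 19.4% and 23.0% of the genes that could be called in these nuclei were past 1.5-fold. *Drd2*-marked nuclei were 25.9%, 27.4% and 18.7% of the striatal nuclei, and within them the BTBR ratio was 0.709 (0.620–0.810), which was not past 1.5-fold, and the *Nav1* KO ratio 1.08 (0.955–1.21). A further 23.5%, 27.2% and 28.7% of *Penk* counts were in an unnamed cluster with both striatal and glutamatergic markers and a median of 5969 UMIs, at 208, 122 and 98.8 CPM.

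*Oprk1* was at 31.8, 17.5 and 17.2 CPM, ratios of 0.550 (0.504–0.600) and 0.540 (0.494–0.590). Within the striatal nuclei its ratios were 0.957 (0.715–1.27) and 1.13 (0.885–1.43), and within the claustrum-like nuclei the BTBR ratio was 1.01 (0.805–1.26), while *Nav1* KO had too few nuclei there for a ratio. Without both classes the ratios were 0.649 (0.587–0.717) and 0.541 (0.486–0.602) and still past 1.5-fold. In layer 2/3-like nuclei *Oprk1* was called lower in BTBR, at 0.488 (0.388–0.612), and not in *Nav1* KO, at 0.732 (0.612–0.874), with the difference in the nuclei of this class given above. In its finer cluster that had *Oprk1* among its leading genes the ratios were 0.643 (0.486–0.844) in BTBR and 0.776 (0.619–0.970) in *Nav1* KO. In the other 3 clusters with at least 50 nuclei in each library the BTBR ratios were 0.793 (0.341–1.70), 0.633 (0.194–1.61) and 0.320 (0.116–1.10). The *Nav1* KO ratios there were 1.18 (0.742–1.93), 0.725 (0.403–1.27) and 0.608 (0.210–2.14). The intervals all included 1, on 5 to 69 counts per library, which are too few to say whether *Oprk1* differs there. When class levels were weighted to the same mix in each library the *Nav1* KO ratio was 0.744 and the BTBR ratio 0.642.

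*Oprd1* was at 6.98, 4.96 and 3.92 CPM, with a ratio of 0.712 (0.597–0.848) in *Nav1* KO and a call in BTBR at 0.562 (0.465–0.679). In the Sst interneuron-like nuclei, where it was highest, it was not called in either comparison, and in layer 6 corticothalamic-like nuclei it was lower in both, at 0.278 (0.0923–0.708) and 0.266 (0.0787–0.720), on 22, 6 and 5 counts. *Oprm1* was at 7.0, 5.61 and 8.34 CPM and *Oprl1* at 16.9, 18.0 and 21.5 CPM, with ratios of 0.801 and 1.07 in *Nav1* KO and 1.19 and 1.27 in BTBR. *Pdyn* was at 6.95, 6.08 and 7.13 CPM and *Pnoc* at 4.57, 4.08 and 6.70 CPM. Their ratios were 0.875 and 0.892 in *Nav1* KO and 1.03 and 1.47 in BTBR, none of them past 1.5-fold. The part of the class mix in these ratios was not tested beyond the values given.

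**Figure D5:**
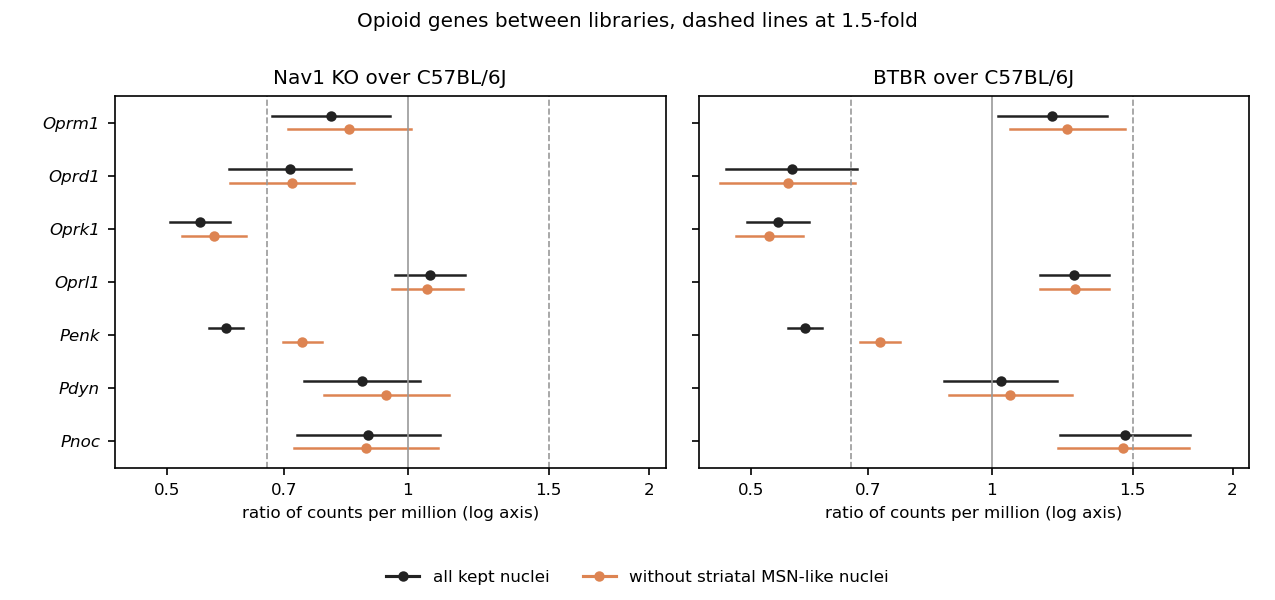
Ratio of each opioid gene's CPM between libraries (x axis, logarithmic) for *Nav1* KO over C57BL/6J (left) and BTBR over C57BL/6J (right), with exact 95% intervals, over all kept nuclei (black) and without striatal medium spiny neuron (MSN)-like nuclei (orange). *Penk* moves from 0.592 to 0.738 and from 0.585 to 0.725, inside the 1.5-fold lines, while *Oprk1* stays below the lower line.

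Class by class, 46 of 91 pairs of an opioid gene and a named class could be called in *Nav1* KO over C57BL/6J, of which 3 were higher and 13 lower, and 19.7% of such pairs over all genes were called. In BTBR over C57BL/6J, 49 of 98 pairs could be called, 7 higher and 15 lower, against 22.5% over all genes. The higher pairs of *Nav1* KO were *Pdyn* in Sst interneuron-like nuclei, at 1.89 (1.32–2.72), *Pnoc* in Vip interneuron-like nuclei, at 1.79 (1.30–2.47), and *Pnoc* in Sst interneuron-like nuclei, at 1.52 (0.866–2.71). In BTBR they included *Oprm1* in Sst interneuron-like nuclei, at 1.88 (1.09–3.35), *Pnoc* in the same class, at 1.76 (1.04–3.06), and *Pdyn* in striatal nuclei, at 1.59 (1.04–2.45). Of the lower pairs, 6 of 13 and 7 of 15 were of *Penk*, and these included glial classes such as the oligodendrocyte-like nuclei, at 0.634 (0.421–0.938) and 0.447 (0.267–0.717), where *Penk* is at the background described above. For *Penk*, microglia-like nuclei were not called, at 1.27 (0.956–1.72) in *Nav1* KO and 0.903 (0.683–1.21) in BTBR. Meningeal fibroblast-like nuclei were not called in *Nav1* KO, at 0.969 (0.721–1.32). *Penk* over the whole library moved with the lower pairs, and the part of free RNA in them was not tested.

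Of 44 other genes of the opioid system, 43 had enough counts, and 4 were called higher and 3 lower in *Nav1* KO over C57BL/6J (median ratio 1.01, against 0.973 over all genes). In BTBR 6 were called higher and 1 lower (median 1.12, against 1.04). Over all genes 20% and 23.0% were called. *Pomc*, the precursor of beta-endorphin, was at 1.34 CPM in C57BL/6J and higher in both, at 2.76 times (2.02–3.83) and 2.30 times (1.67–3.21). Among the 6 processing genes only *Scg5*, which encodes the chaperone of the convertase *Pcsk2*, was called, at 2.95 times in BTBR. Of the 6 peptidases *Mme*, which encodes neprilysin and breaks down enkephalins, was lower in *Nav1* KO at 0.504 times, and *Anpep*, an aminopeptidase led by meningeal fibroblast-like nuclei, was higher in both, at 2.98 and 1.51 times. *Gnb1*, a G protein beta subunit, was higher in both (1.56 and 1.62 times) and *Gnai2* in BTBR (1.62 times). *Adcy5*, the main striatal adenylyl cyclase, was lower in both (0.545 and 0.641 times), and *Rgs9*, which ends G protein signals in striatum, in *Nav1* KO (0.455 times). *Ackr3*, a scavenger of opioid peptides, was higher in both (1.63 and 1.65 times). *Mme*, *Adcy5* and *Rgs9* had their highest class in the striatal nuclei, whose share moved in the same direction, and meningeal fibroblast-like nuclei were 3.60%, 8.96% and 5.32% of the libraries. *Pomc* was highest in endothelial-like nuclei, which were 0.205%, 0.555% and 0.338% of the libraries, and *Ackr3* in pericyte or smooth muscle-like nuclei, which were 0.137%, 0.263% and 0.149%, and the part of these shares was not tested. The potassium and calcium channels that opioid receptors act on were not called in either comparison, except that *Kcnj5* had 5 to 8 counts and could not be.

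The genes whose levels were most like each opioid gene over the 13 classes with at least 50 nuclei in every library were ranked by Pearson's r of log2(CPM + 5), as a description. The classes share libraries and depth. *Slc35d3* (r = 0.97), *Syndig1l* and *Ccdc187* were most like *Penk*, and each was highest in the striatal nuclei. *Crh*, the corticotropin-releasing hormone (r = 0.97), *Tac2* and *Npas1* were most like *Pnoc*, each highest in the Vip interneuron-like nuclei. *Gm1604a*, *Mme* and the tachykinin precursor *Tac1* (r = 0.88) were most like *Pdyn*, and *Adamts3*, *Adra2c* and *Strip2* (r = 0.93) most like *Oprk1*, all highest in the striatal nuclei among these classes, which leave out the claustrum-like one. For *Oprl1* they were *1700025G04Rik*, *Tdp1* and *Mboat7* (r = 0.93 to 0.95). *Oprm1* (*Atp6v1d*, *Gabarapl1*, *Eef1a2*) and *Oprd1* (*Rrn3*, *Sptb*, *Zfyve9*) had means under 20 CPM in each of these classes, so their likeness rests on few counts.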

How the data were processed

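For each library, prepared with a 10x Genomics 3′ kit, the deposited file is a sparse table of UMI counts by gene and barcode, already limited to barcodes called as cells. The submitters' processing notes name Cell Ranger 6.0.0 and mm10, and the values are whole counts. A nucleus was kept if it had 200 genes or more and if mitochondrial genes took less than 10% of its counts, which for C57BL/6J and *Nav1* KO gave the numbers stated in the study's methods. The 3 libraries were clustered together without integration, on ln(1 + counts per 10000), with 2000 variable genes (opioid genes left out), 30 principal components, 20 neighbours and Leiden resolution 1. A cluster was named when at least 3 markers of a list were detected, the list's score (mean log2 ratio over other clusters) was at least 0.8, at least 1 of its 10 leading genes was in the list with no more from another list, and its glutamate and GABA markers did not go against it. Of 43464 nuclei, Scrublet's automatic threshold called 1, 1 and 0, so no nucleus was removed as a doublet, and removing the 10% with the highest scores was an alternative.

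Levels are the summed counts of a class in a library, scaled to CPM by the same nuclei's total, and carry exact Poisson intervals (95%). Shares carry Clopper-Pearson intervals and ratios the exact binomial split of counts. A count of 0 is given the limit of 3 counts, per library and class. Classes entered the order of a gene with at least 20 nuclei in every library and 20 counts of the gene over the libraries, and class ratios needed 50 nuclei in both libraries. Shares of nuclei were taken after thinning each nucleus to 1000 UMIs. PCR and sampling of nuclei add error that the intervals leave out, and a class with few nuclei is less certain. Genes named are the 7 opioid genes, the 44 genes of the system's lists (those past 1.5-fold), the 3 genes most like each, *Nav1* and class markers. Genes and lists were chosen with earlier results of these data known. Ratios were tested on simulated data in which 200 of 17516 genes were changed: in *Nav1* KO over C57BL/6J 100 of 100 genes raised 2-fold and 99 of 100 lowered to 0.5-fold were called, with 2.28% of unchanged genes. The simulated counts held counting error alone, with no difference in class mix, pool or preparation. The 2.28% is therefore not a rate of false calls in the data. Alternatives were other clusterings, limits, doublet removal, scalings, thinning to 500 UMIs and, added after the data were seen, sub-clusters, the *Drd1* and *Drd2* split, the split of the layer 2/3-like nuclei and leaving out classes. Python 3.11.15, numpy 2.4.6, scipy 1.17.1, pandas 2.3.3, scanpy 1.11.5, leidenalg 0.10.2 and matplotlib 3.10.9 were used, and gene positions and coding sequences are from GENCODE M21 on mm10.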

Additional observations from a re-analysis of the deposited data

How the results depend on the processing

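Of the alternatives' values, 33 moved by more than their counting interval, or a count by more than 1.5 times, 151 moved by less, and none reversed direction. Nearly all that moved were values of the main results, of which 30 moved and 82 did not. Of the remaining values 3 moved and 69 did not. At resolution 2 the leading class changed for *Oprm1* and *Pdyn* (to Sst interneuron-like) and *Oprd1* (to Pvalb interneuron-like). With class levels weighted to the same mix, *Nav1* KO over C57BL/6J was 0.744 for *Oprk1* and 0.784 for *Penk*, BTBR over C57BL/6J was 0.642 for *Oprk1*, and 0 opioid genes were past 1.5-fold in *Nav1* KO (2 otherwise). Without striatal medium spiny neuron-like nuclei *Penk* was 0.738 in *Nav1* KO and 0.725 in BTBR, and 1 gene was past 1.5-fold in *Nav1* KO. Without these and the claustrum-like nuclei *Penk* was 0.732 and 0.721, *Oprk1* 0.649 in *Nav1* KO, and again 1 gene was past 1.5-fold. These exclusions were chosen after the data were seen. As means of per-nucleus CPM, *Penk* in striatal nuclei was 771 CPM, *Pnoc* in Vip interneuron-like nuclei 124 CPM, *Oprk1* 0.476 in *Nav1* KO and *Penk* 0.547 in BTBR. At resolution 2 *Oprd1* in Sst interneuron-like nuclei had a mean of 12.6 CPM, and with 10 components and resolution 0.3 *Oprl1* in oligodendrocyte precursor-like nuclei was at 48.8 CPM. Shares of nuclei with a UMI followed depth. At 500 UMIs and without thinning they were 0.724% and 3.50% for *Oprm1*, 1.06% and 6.13% for *Oprd1*, 21.2% and 61.6% for *Oprk1*, 22.2% and 38.7% for *Penk*, 1.69% and 6.28% for *Pdyn* and 4.79% and 18.3% for *Pnoc*, each in its leading class, and *Oprl1* was at 1.90% at 500 UMIs. Other causes of these moves were not tested. With each library clustered alone no striatal or claustrum-like class was found in every library, and with 10 components and resolution 0.3 no Sst, Vip or claustrum-like class, so these gave no value. No paired analysis was possible because each group is 1 library. Depth limits *Oprm1*, *Oprd1*, *Pdyn* and *Pnoc* in particular.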
